A study of Ovis aries with 26 samples.

Results

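Smooth muscle-like mural cells were examined in the fetal and term sheep pancreas. They were selected on their own measured counts of unique molecular identifiers (UMIs, each standing for 1 captured mRNA molecule). A member had at least 2 UMIs of ACTA2, 2 of TAGLN and 1 of MYLK, at least 2 UMIs of ACTG2 or of DES, and no UMI of PECAM1 or CHGA, which mark endothelial and endocrine cells. This chose 1579 of 79510 kept cells. The 624 cells that passed the same gate with no UMI of ACTG2 or DES served for comparison and are called ACTG2-negative and DES-negative mural cells. A further 428 cells of the gate had 1 UMI of the higher of ACTG2 and DES and lay just outside the rule, and 305 members had exactly 2 and lay just inside it.

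The cells came from 26 libraries of 23 animals in 6 groups. The non-CF fetuses at 80 days of gestation (4 animals) were 2 labelled WT and 2 labelled HZ, which carry 1 targeted CFTR allele, and donors 2 to 4 were triplets. All non-CF animals at 120 days (3) and at term (4) were WT. The CFTR-/- animals (labelled CF) numbered 3 at 80 days, 6 at 120 days and 3 at term. The CFTR-/- animals have no intact copy of CFTR, the gene of a chloride channel, in any cell, and those at 80 days, donors 1 to 4 at 120 days and donor 3 at term were clones of 1 male fibroblast line, so they share a genome. By the numbers given to the animals, donors 2 and 3 of the CFTR-/- fetuses shared a pregnancy at 80 days and again at 120 days, and donors 1 and 2 of the non-CF fetuses at 120 days were littermates. Each was counted as 1 animal, so the p-values treat littermates as independent. Donors 5 and 6 at 120 days, which were twins and are labelled female, and donors 1 and 2 at term were bred naturally, while no non-CF animal was a clone. Cloning and genotype therefore cannot be told apart in the CFTR-/- group at 80 days. The mix of clones and naturally bred animals also changed with age in the CFTR-/- groups, so age and breeding are partly confounded there. Donor 1 at 120 days and donors 1 and 3 at term of the CFTR-/- groups gave 2 libraries each, whose cells were added. Breeding and litters are as the study's methods and sample table give them.

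Mural cells wrap blood vessels, and smooth muscle also lies around ducts and in the wall of the gut. Here the word mural means cells that pass the gate, whatever their tissue. Smooth muscle cells contract through a smooth muscle myosin that pulls on actin filaments, and pericytes, which sit on capillaries, share part of that program. ACTA2 is the actin of vascular smooth muscle, ACTG2 is the actin best known from the muscle of gut, bladder and uterus, and DES encodes desmin, the intermediate filament of muscle. MYH11, the smooth muscle myosin heavy chain, and CNN1, calponin, mark the differentiated contractile state and played no part in the rule.

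The members were of more than 1 kind by the genes of the rule. Of the 1579 cells, 1095 (69.35%) had at least 2 UMIs of ACTG2, 72 had 1 and 412 had none. DES reached 2 UMIs in 1055 members and was missing in 371, and both genes reached 2 UMIs in 571. A member held a median of 7888 UMIs, of which 4 were ACTG2, 2 were DES, 48 were ACTA2 and 50 were TAGLN. The ACTG2-negative and DES-negative cells held a median of 5780.5 UMIs, with 6 of ACTA2 and 9 of TAGLN. The members without ACTG2 resembled that class in their median counts, with 9 UMIs of ACTA2, 12.5 of TAGLN and 3 of MYLK. Members with at least 2 UMIs of ACTG2, called ACTG2-positive here, had 81 of ACTA2, 80 of TAGLN and 14 of MYLK at a similar total (7937 against 7794.5 UMIs). These values chose the cells and are given as a description only.

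MYH11 and CNN1 separated the members in the same way. After each cell was thinned to 3000 UMIs, MYH11 was seen in 89.2% of the ACTG2-positive members and in 17.0% of those without ACTG2. The shares were 24.3% in the ACTG2-negative and DES-negative cells and 0.671% in the 76879 cells outside the gate. CNN1 was seen in 78.6% of ACTG2-positive members, 6.23% of members without ACTG2, 9.31% of the ACTG2-negative and DES-negative cells and 1.92% of the cells outside. RGS5, a regulator of G-protein signaling that marks pericytes, ran the other way, at 15.4%, 35.2%, 28.5% and 0.939% of the same classes. The pericyte markers CSPG4 (24.88%, 24.69%, 17.15% and 0.906%) and NOTCH3 (47.02%, 54.86%, 46.35% and 3.32%) did not separate the 3 mural classes in this way. Before thinning the MYH11 shares were 93.6%, 25.5%, 33.5% and 1.92%. Cells outside the gate, most of which should lack these genes, had a median of 12457 UMIs before thinning. The markers therefore matched the smooth muscle label in the ACTG2-positive members, whereas in the 412 members without ACTG2, chosen by DES, the shares with MYH11 and CNN1 were below those of the ACTG2-negative and DES-negative mural cells. These shares pool the cells of all animals, and within animals MYH11 differed by 0.07 on the log2 scale between these last 2 classes (adjusted p = 0.95, edgeR).

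For tests, UMIs were summed per animal and class and given as counts per 1000000 UMIs of that sum (CPM), with 10 cells needed. Sums of the members held 118416 to 2584661 UMIs in the 20 animals that had 10 or more. Whole libraries held 7841217 to 171256169 UMIs and 943 to 9543 kept cells. A UMI of the epithelial genes KRT8, KRT18, EPCAM or CLDN4 was present in 21.0% of members, 28.04% of the ACTG2-negative and DES-negative cells and 78.3% of cells outside the gate. The 11 acinar markers summed to between 27.96 and 31680 CPM in the members (median 723) and to between 3720 and 93870 CPM outside the gate. The defining endothelial markers summed to no more than 53.6 CPM in the members. A UMI of ACTG2 was found in 0.993% and one of DES in 4.36% of the cells outside the gate. The DES share varied between animals, from 8.44% to 17.0% in the 7 animals at 80 days and from 0.466% to 6.17% in the other 16, while ACTG2 reached 7.19% in 1 animal (donor 1 of the non-CF fetuses at 80 days). CFTR lay between 0 and 21.7 CPM in the members, too low to check the genotype labels there. In total 31 members shared a barcode with a cell of another library, and 2 did so with another member.

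Within the animals, the members were compared with the ACTG2-negative and DES-negative mural cells in the 19 animals that had both. Because both classes were defined on counts of these same cells, a p here measures how repeatable the difference was over animals, and the 7 genes of the rule were not tested. Of 24 tested contractile genes 23 were higher in the members, of 22 fibroblast matrix genes 9 were lower and 2 higher, and the keratin genes KRT8 and KRT18 were lower. Of 4112 genes tested with edgeR's quasi-likelihood test, with the animal as block and Benjamini-Hochberg adjustment, 429 (10.4%) were higher and 286 (6.96%) lower in the members. These percentages are the background for the list counts of this comparison.

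MYH11 was the most abundant of the large differences. In the members it lay between 464.8 and 7227 CPM (median 1976), and in the ACTG2-negative and DES-negative cells between 45.4 and 693.2 CPM (median 148.9). The ranges overlapped between animals, but the members were higher within each of the 19 animals. The log2 fold change was 3.61 (SE 0.229, adjusted p = 1.03e-10, edgeR), with means of 2206 ± 1566 and 185 ± 152 CPM (SD, n = 19).

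CNN1 differed most. Its lowest, median and highest levels were 147.7, 692.3 and 5592 CPM in the members against 5.89, 35.2 and 165.5 CPM. It was higher in 19 of 19 animals, by 4.14 on the log2 scale (SE 0.346, adjusted p = 3.57e-09, edgeR). When the members were limited to those without ACTG2, the difference was -1.01 and did not pass (adjusted p = 0.184, edgeR). The higher CNN1 of the members was thus carried by the ACTG2-positive ones.

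No gene of the contractile list was lower, and its median log2 fold change was 1.48 against -0.018 over all tested genes. The tropomyosins TPM1 and TPM2, which lie along the actin filament, were higher by 1.96 and 2.31, and the myosin light chains MYL6 and MYL9 by 1.48 and 2.25. CALD1, caldesmon, which holds back the myosin motor, was higher by 1.05. All 5 passed the threshold (edgeR, adjusted p at most 6.36e-07) and were higher in 18 or 19 of the 19 animals. With the members limited to those without ACTG2, TPM1 (-0.37) and MYL6 (-0.047) lay below 0 and did not pass (adjusted p = 0.094 and 0.91, edgeR). TCAP, a muscle scaffold protein of the sarcomere, was higher by 2.75 and LIMS2, an adaptor at integrin adhesions, by 2.75. Other large differences were SH3BGR at 3.69 and COL8A1, a short-chain collagen of vessel walls, at 2.89.

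Over all tested genes 10.4% were higher and 6.96% lower. In the list of serum response factor, myocardin and other transcriptional regulators 3 of 12 tested were higher and 0 lower. MYOCD, myocardin, the coactivator that switches on smooth muscle genes, was at 80.9 ± 35.6 CPM in the members and 17.6 ± 21.8 CPM in the comparison cells (SD, n = 19). It was higher in 19 of 19 animals, by 2.23 on the log2 scale (adjusted p = 1.17e-07, edgeR). FHL1, a LIM-domain cofactor, was higher by 1.17. MEF2C (0.49, adjusted p = 0.083, edgeR), TEAD1 (0.18) and HES1 (0.06) did not pass. In the list of visceral mesenchyme regulators 0 of 6 were higher and 1 lower, GATA6 by -0.83, and HAND2 (0.49, adjusted p = 0.106, edgeR), MEIS1 and MEIS2 did not pass.

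Genes of excitation and calcium handling were higher in 6 of 9 tested and lower in 0, against 10.4% and 6.96% of all tested genes. KCNMB1, the smooth muscle subunit of the large-conductance potassium channel, lay between 55.6 and 236.8 CPM in the members and between 9.07 and 70.8 CPM in the comparison cells. Its log2 fold change was 2.28 with the members higher in 19 of 19 animals. PLN, phospholamban, which restrains the calcium pump of the sarcoplasmic reticulum, was higher by 2.23 in 18 of 19, and KCNAB1, a potassium channel subunit, by 1.88. The pericyte potassium channel genes KCNJ8 (0.02) and ABCC9 (-0.12) did not pass. Of the receptors and cyclic-nucleotide genes 3 of 8 were higher, namely RGS2 (0.90), PRKG1, the cGMP-dependent kinase (0.81), and PDE3A (0.86), while the endothelin receptor EDNRA (0.06) and the guanylate cyclase subunit GUCY1B3 (0.27) did not pass.

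Of 10 pericyte markers 2 were higher and 1 lower, against 10.4% and 6.96% of all tested genes, and their median was 0.09. CSPG4, the NG2 proteoglycan, was higher by 0.89 in 18 of 19 animals and EPAS1 by 0.49, whereas THY1 was lower by -0.64. NOTCH3, the receptor of the vascular mural lineage, lay between 60.8 and 1174 CPM (median 293.4) in the members and between 88.3 and 991.6 CPM (median 235.4) in the comparison cells. The classes overlapped for NOTCH3 and the difference of 0.31 did not pass (adjusted p = 0.197, edgeR).

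In the basement membrane list 11 of 19 were higher and 2 lower, against 10.4% and 6.96% of all tested genes. DMD, dystrophin, which ties the muscle membrane to the matrix, was higher by 1.19, and the integrin gene ITGA7 by 0.92. LAMC1, a laminin chain, was higher by 0.64 and ITGB1 by 0.39, while NID1 and LAMB1 were lower by -0.83 and -0.66. The type IV collagen COL4A1 did not pass (0.18). Fibroblast matrix genes were lower in 9 of 22 and higher in 2, ELN and FN1. LUM, lumican, was at 808.6 ± 919.2 CPM in the members and 1681 ± 1094 CPM in the comparison cells, lower in 19 of 19 animals, by -1.68 on the log2 scale (adjusted p = 0.000926, edgeR). PDGFRA, a platelet-derived growth factor receptor of fibroblasts, was lower by -1.51, COL1A1 by -0.63, COL1A2 by -0.68 and COL3A1 by -0.54 (0.21 in the term animals alone), and MGP did not pass. DLK1, an imprinted inhibitor of Notch signaling, was lower by -1.99 and the microfibril gene MFAP5 by -1.95.

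ELN, elastin, was an exception in that matrix list. It was higher in the members in 18 of 19 animals, with lowest, median and highest levels of 330.8, 1569 and 4485 CPM against 37.2, 377.8 and 5267 CPM, a log2 fold change of 1.72. Of all tested genes 10.4% were higher and 6.96% lower. In the TGF-beta and BMP list 4 of 18 were higher and 3 lower, with a median of 0.017 against -0.018 for all. Among them TGFB3 was higher by 1.31, INHBA, the activin A subunit, by 1.12 and ID4 by 0.81, and ENG and SMAD3 were lower by -0.60 each.

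Genes of other cell types also differed. The duct list was lower in 3 of 3 tested (CLDN4 -2.71, KRT18 -2.63, KRT8 -2.58), with summed duct markers of 6.99 to 726 CPM (median 73.1) in the members against 15.2 to 9037 CPM (median 502) in the comparison cells. SOX9, a progenitor and duct factor, was lower by -2.39 and CD24, an epithelial surface protein, by -2.47. Of 6 acinar genes 1 was lower, CELA1 (-1.27), and of 2 endocrine genes 1 was higher, CPE (0.58). Over all tested genes 6.96% were lower and 10.4% higher. With cells that held an epithelial UMI left out, MYH11, CNN1 and TPM1 kept their direction and passed. In 5 of the 19 animals the duct sum of the comparison cells exceeded that of the cells outside the gate, with 9037 against 4147 CPM in donor 3 at term, 3554 against 1329 CPM in donor 2 at term, 2817 against 957 CPM in donor 5 at 120 days and 2188 against 2102 CPM in donor 1 at 80 days of the CFTR-/- animals, and 1549 against 1207 CPM in donor 2 of the non-CF animals at term. Summed mesothelial markers were at 0 to 50.1 CPM in the members and at 0 to 1664 CPM in the comparison cells, with the highest sums in donors 3 (1664 CPM) and 2 (1050 CPM) at term and donor 5 at 120 days (637 CPM) of the CFTR-/- animals. None of these markers was abundant enough to be tested singly. The mesothelial list includes the keratin gene KRT7, and the same animals had the highest duct sums of the comparison cells. The part of duct RNA in the mesothelial sums was not tested. The part of epithelial and mesothelial RNA in the other differences was not tested. Immediate early and stress genes were lower in 6 of 18 and higher in 1 (NR4A1, 0.57), against 6.96% and 10.4% of all tested genes. The heat shock genes HSPA6 (-1.64), DNAJB1 (-0.84) and HSPA1A (-0.83) were lower, and FOS (0.01), JUN (-0.13) and JUNB (-0.06) did not pass. Oxidative and hypoxia genes were higher in 4 of 8, among them LDHA (0.52), ALDOA (0.40) and HIF1A (0.46), and LDHA, EPAS1 and CPE turned below 0 when cells were thinned (-0.11, -0.14 and -0.03). Of 6 cell division genes 0 passed in either direction.

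**Figure D1:**
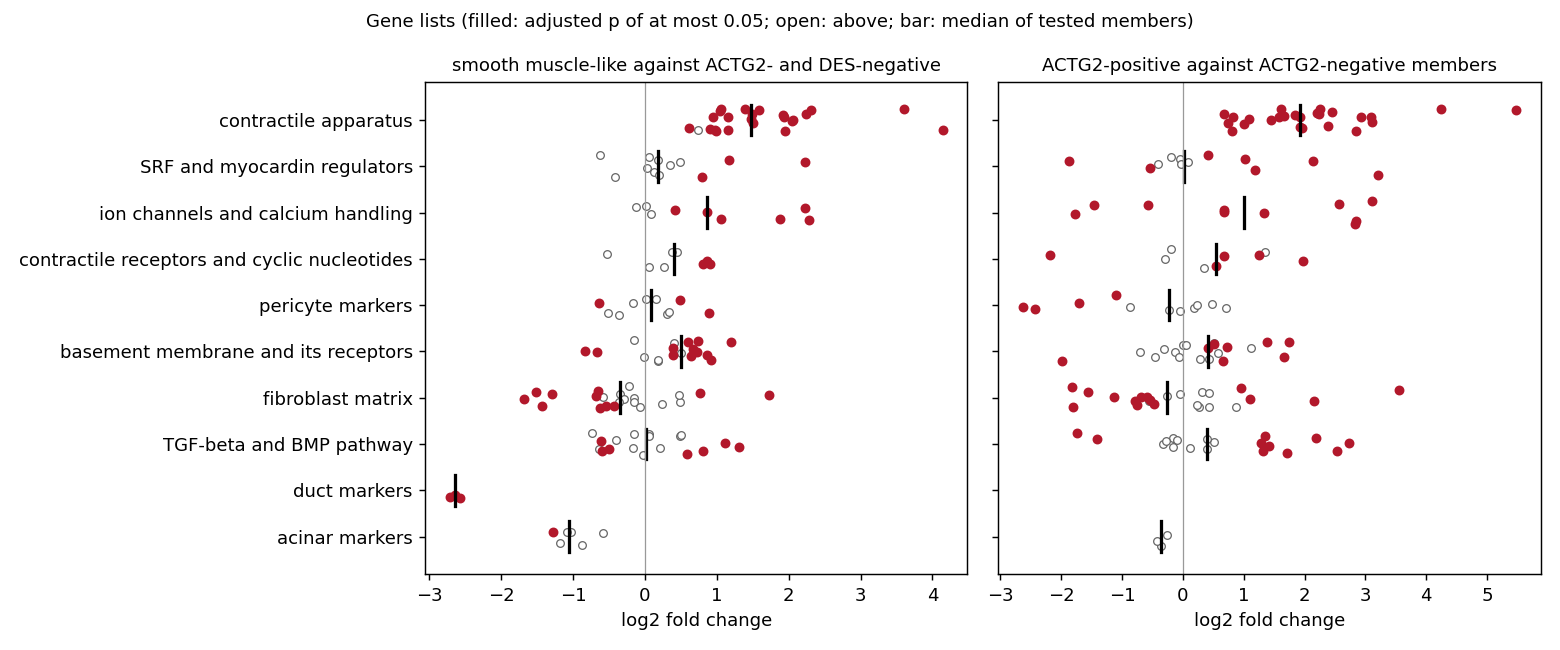
Log2 fold changes of the tested genes of 10 lists, on the left for members against ACTG2-negative and DES-negative mural cells and on the right for ACTG2-positive against ACTG2-negative members (filled points, adjusted p of at most 0.05; bars, medians of the tested genes). The contractile genes lie to the right of 0 in both panels, and the pericyte and fibroblast matrix lists spread to both sides.

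The members themselves were then compared by ACTG2, with at least 2 UMIs against none, in the 11 animals with 10 cells of both kinds. The p again measures repeatability between classes defined on these cells. Of 4545 tested genes 499 (11.0%) were higher and 435 (9.57%) lower in the ACTG2-positive members (edgeR, animal as block). These percentages are the background for the list counts of this comparison. All 25 tested contractile genes were higher, with a median log2 fold change of 1.92. Of 11 pericyte markers 4 were lower and 0 higher, and of 23 fibroblast matrix genes 10 were lower and 4 higher.

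CNN1 was at 242.7 to 3009 CPM (median 1419) in the ACTG2-positive members and at 0 to 73.9 CPM (median 48.2) in those without ACTG2. The groups did not overlap, and the log2 fold change was 5.47 (SE 0.292, adjusted p = 3.43e-10, edgeR, 11 of 11 animals). MYH11 likewise did not overlap, at 1039 to 6221 CPM (median 3044) against 33.4 to 531.5 CPM (median 124.7), with a log2 fold change of 4.25 (SE 0.264). TPM1 was at 7548 ± 2945 CPM against 1087 ± 292 CPM (SD, n = 11), a log2 fold change of 2.85. MYOCD overlapped, since 1 animal reached 122.6 CPM in the members without ACTG2, but was higher in 11 of 11 by 3.21, and FHL1 by 2.14. TCF21 and EBF1, transcription factors of fibroblasts and mesenchymal progenitors, were lower by -1.87 and -0.53, so that the list of regulators held 5 higher and 2 lower of 12.

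The genes named for the size of their difference included 3 matrix and adhesion genes. NOV, a matricellular protein, was at 20.2 to 3066 CPM (median 391.8) in the ACTG2-positive members and 0 to 40.2 CPM (median 1.72) in the others, a log2 fold change of 5.86. CDH13, T-cadherin, was higher by 5.61 and TNC, tenascin C, by 5.17, each in 11 of 11 animals. ELN was higher by 3.55, with 2475 ± 1615 CPM against 237.0 ± 211.1 CPM (SD, n = 11), and MGP, a calcification inhibitor of vessel walls, by 1.11. Among the fibroblast genes LUM was lower by -1.83 and PDGFRA by -1.80. In the TGF-beta list 8 of 19 were higher and 2 lower. LTBP1, which stores latent TGF-beta in the matrix, was higher by 2.73, INHBA by 2.54, ID4 by 1.42 and CYR61 by 1.28, while TGFBI and TGFBR3 were lower by -1.74 and -1.42.

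Among channel genes KCNMB1 (3.101), PLN (2.84) and KCNAB1 (2.82) were higher in the ACTG2-positive members. KCNJ8 and ABCC9, the pore and the sulfonylurea receptor of the potassium channel of pericytes, were lower by -1.77 and -1.47, in 11 of 11 animals each. KCNJ8 was at 30.1 to 178.8 CPM (median 96.0) against 143.9 to 596.0 CPM (median 351.8), with little overlap. In all, 7 of 10 channel genes were higher and 3 lower. Of the 9 receptor and cyclic-nucleotide genes 4 were higher, with RGS2 at 1.97, PDE3A at 1.26 and PRKG1 at 0.55, and 1 was lower, the endothelin receptor EDNRB at -2.18.

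Among the pericyte markers NDUFA4L2, a mitochondrial protein abundant in pericytes, was at 2.74 to 165.9 CPM (median 44.6) in the ACTG2-positive members and 141.3 to 513.2 CPM (median 314.8) in the others, a log2 fold change of -2.63. THY1 did not overlap, at 6.60 to 59.5 CPM against 125.9 to 371.0 CPM, and was lower by -2.42. NOTCH3 again did not pass (0.19, adjusted p = 0.523, edgeR) and lay between 100.4 and 1472 CPM in the members without ACTG2. The most reduced genes were DLK1 (-4.09), the complement gene C7 (-3.90), the chemokine CCL19 (-2.79), EMP1 (-2.67) and the cytokine subunit EBI3 (-2.65). In the basement membrane list DMD (1.66), SGCD, a sarcoglycan of the dystrophin complex (1.74), and LAMC1 (0.51) were among 7 higher genes of 20, and NID1 (-1.99) was the only lower one.

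Cell division genes were lower in 3 of 7 and higher in 0, namely TYMS (-0.91), PCNA (-0.71) and HMGB2 (-0.66), and stress genes were higher in 2 of 19 and lower in 5. Of 8 oxidative genes 2 were higher, ENO1 and ALDOA, and 1 of 5 visceral regulators was, MEIS2 (0.57). Of the interstitial cell markers only ETV1 was tested, and it was lower by -1.72. None of the 3 acinar genes tested passed.

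Set against the same ACTG2-negative and DES-negative cells, the 2 kinds of member gave unequal lists. With the ACTG2-positive members alone 1034 of 3700 tested genes passed, and with the members without ACTG2 alone 26 of 3749 did, 17 higher and 9 lower. The number of cells and animals differed between these fits, and the 2 fits share their comparison cells. In the second fit CNN1 (-1.01), ELN (-1.34), FN1 (-1.16), INHBA (-1.03), FHL1 (-0.37), DMD (-0.34), RGS2 (-0.26), ID4 (-0.17) and ALDOA (-0.035) lay below 0, and THY1 (0.66), ENG (0.48) and NID1 (0.27) above, each on the other side from the fit on all members. None of these reversed differences passed (adjusted p between 0.058 and 0.97, edgeR).

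**Figure D2:**
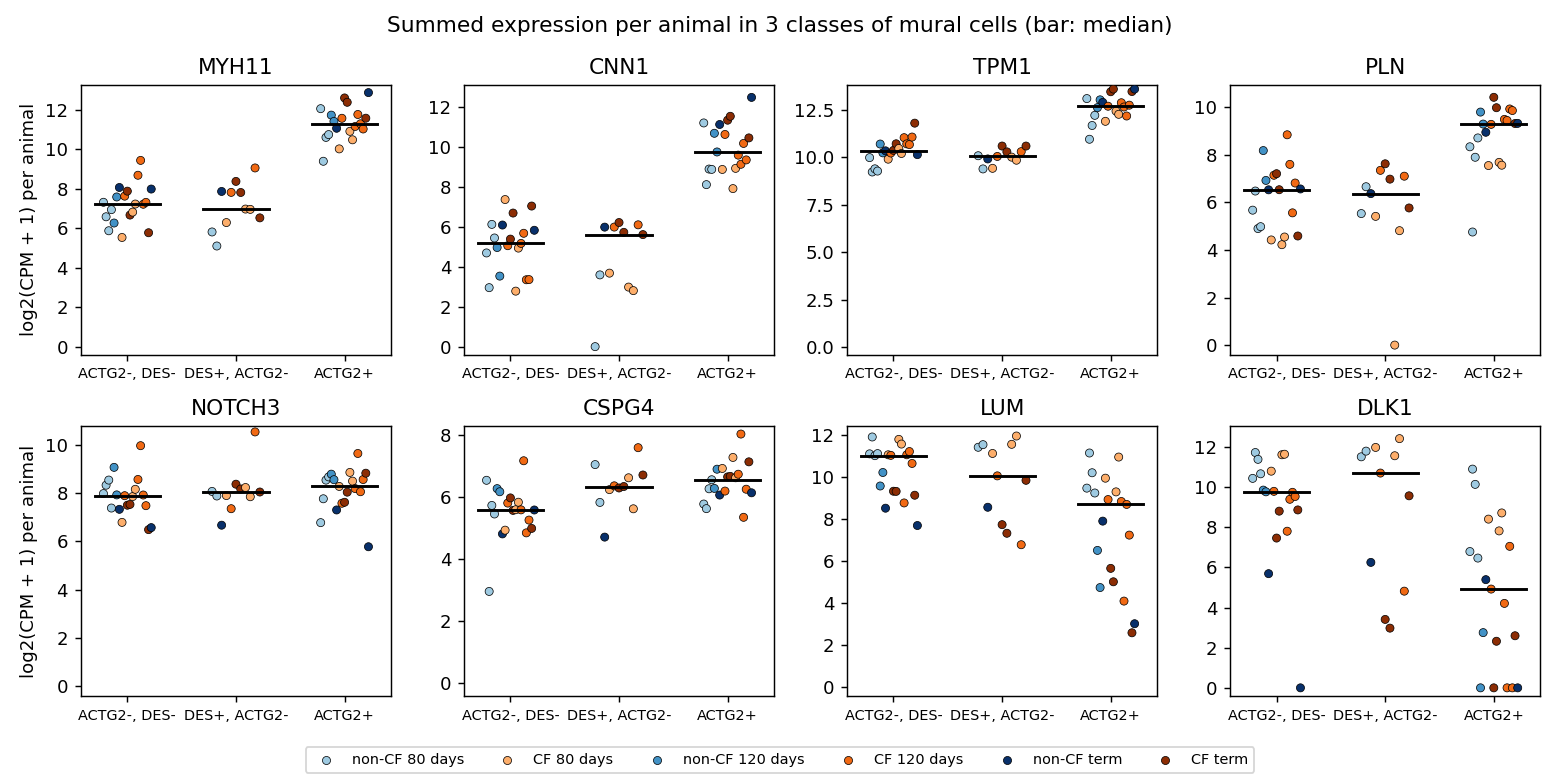
Levels of 8 genes as log2(CPM + 1), 1 point per animal coloured by group with the median as a bar, in ACTG2-negative and DES-negative mural cells, members without ACTG2 (DES+, ACTG2-) and ACTG2-positive members. MYH11, CNN1, TPM1 and PLN are raised in the ACTG2-positive members, where LUM and DLK1 are lower, and NOTCH3 overlaps across all 3 classes.

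A small set of members had more UMIs of ACTG2 than of ACTA2. There were 109 such cells, 40 in donor 1 of the non-CF fetuses at 80 days (32.0% of its 125 members) and 58 in donor 4 of the non-CF animals at term (49.2% of 118). No other animal had more than 3. Their median counts were 187 UMIs of ACTG2, 57 of DES and 43 of ACTA2 at 8769 UMIs in all.

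The 2 animals were singled out by ACTG2, and ACTG2, DES and ACTA2 are genes of the rule. Their summed levels of these genes are therefore a description only. ACTG2 was at 8082 CPM in the 80-day donor 1 and 14220 CPM in the term donor 4, against 279.6 to 3276 CPM in the other 18 animals. DES was at 1993 and 4765 CPM against 101.1 to 1289 CPM. ACTA2, at 6813 and 10220 CPM, lay within the range of the others. MYH11 was at 3485 and 7227 CPM, with the others between 464.8 and 3938 CPM, and CNN1 at 1948 and 5592 CPM.

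The next genes were chosen after their values were seen. HHIP, a target and inhibitor of hedgehog signaling, was at 158.1 CPM in the 80-day donor and 24.1 CPM in the term donor, and at no more than 3.48 CPM in any other animal. FOXF1, a transcription factor of gut and lung mesenchyme, was at 96.6 and 33.3 CPM, with at most 15.8 CPM elsewhere. NOTCH3 was at 130.9 and 60.8 CPM, below the 141.0 to 1174 CPM of the other 18, and ELN was at 361.5 and 464.7 CPM.

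By cell, HHIP was seen in 31.2% and FOXF1 in 44.0% of the members with more ACTG2 than ACTA2, against 2.33% and 8.11% of the other ACTG2-positive members. NOTCH3 was seen in 11.01% against 74.65% and ELN in 34.9% against 90.5%. MYH11 was present in 97.3% of the former and 93.2% of the latter. After thinning to 3000 UMIs the shares were 16.4% against 1.68% for HHIP, 25.0% against 3.46% for FOXF1, 4.81% against 51.6% for NOTCH3 and 19.2% against 81.7% for ELN. These cells come almost entirely from 2 animals and no test was made. In the same 2 animals the intestinal epithelial markers summed to 180.7 and 839.5 CPM in cells outside the gate, against 14.6 to 74.6 CPM in the others, and to 14.0 and 29.8 CPM in the members, where donor 2 of the non-CF animals at term reached 20.4 CPM and the other 17 animals at most 9.10 CPM. The part of gut wall or other tissue in the sample was not tested.

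**Figure D3:**
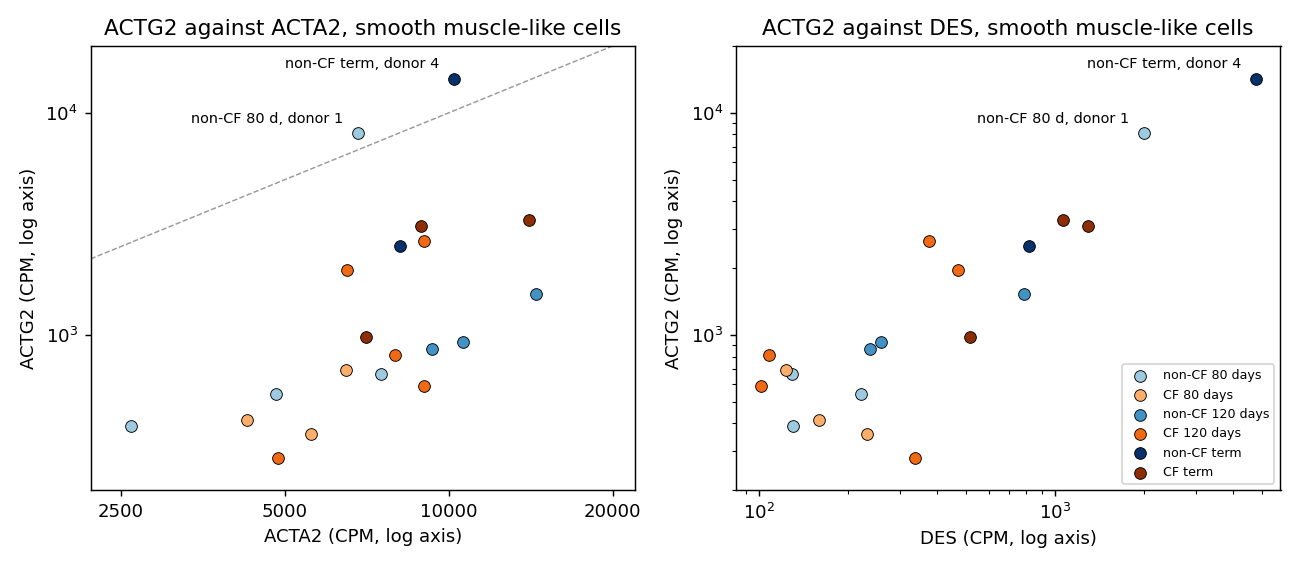
ACTG2 level of the members against ACTA2 (left) and DES (right), in CPM on log axes, 1 point per animal (20 animals) coloured by group, with equal levels as a dashed line in the left panel. Donor 1 at 80 days and donor 4 at term, both non-CF, lie above that line at 8082 and 14220 CPM of ACTG2, and the other 18 animals lie below it. The axes show genes of the rule, so the panels are a description only.

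The share of smooth muscle-like cells among kept cells varied widely between animals of a group. In the non-CF fetuses at 80 days it was 4.87%, 2.15%, 1.63% and 1.84%, and in the CFTR-/- fetuses 7.58%, 1.62% and 2.73%. The means were 2.62% ± 1.52 (SD, n = 4) and 3.98% ± 3.17 (SD, n = 3). These ranges overlapped, and the difference of 1.35 percentage points gave p = 0.514 (exact two-sided permutation test, adjusted p = 0.72 over 7 comparisons). It turned to -0.236 points after thinning and ran from -0.448 without donor 1 of the CFTR-/- fetuses to 2.54 without donor 2.

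At 120 days the share was low in both genotypes. It was 0.573%, 1.08% and 1.26% in the non-CF fetuses and between 0.152% and 2.65% (median 0.881%) in the 6 CFTR-/- fetuses, with means of 0.972% ± 0.358 and 1.11% ± 0.890. The difference of 0.141 points gave p = 0.905 by the exact permutation test (adjusted p = 1). At term the non-CF animals had 0.832%, 0.775%, 0.0924% and 3.92%, and the CFTR-/- animals 0.971%, 9.94% and 2.67%. The means were 1.41% ± 1.71 and 4.53% ± 4.77, a difference of 3.12 points (exact permutation p = 0.343, adjusted p = 0.6). Here 1 CFTR-/- animal, donor 2 at 9.94%, lay above the others, and without it the difference was 0.415 points, against 4.90 without donor 1. The non-CF value of 3.92% was that of donor 4, in which 58 of 118 members had more ACTG2 than ACTA2 and intestinal markers were high outside the gate.

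Between ages the non-CF share at 120 days lay below that at 80 days without overlap, by -1.65 points, and p = 0.0571 was the smallest that the exact permutation test of 3 against 4 animals can give (adjusted p = 0.2). In the CFTR-/- fetuses the corresponding difference was -2.86 points (exact permutation p = 0.0476, adjusted p = 0.2) and between 120 days and term 3.42 points (p = 0.0952 by the same permutation test, adjusted p = 0.222). With 1 animal left out these ran from -4.04 to -1.06 points (the latter without donor 1 at 80 days) and from 0.708 (without donor 2 at term) to 5.19 points, and the non-CF difference to 120 days was -0.901 without donor 1 at 80 days. In that non-CF donor 40 of 125 members had more ACTG2 than ACTA2, and intestinal markers were high outside the gate. DES, which admits cells by the rule, was seen outside the gate in 8.44% to 17.0% of cells per animal at 80 days. At the later ages it was seen in 0.466% to 6.17%. The part of this in the shares was not tested. For non-CF animals the step from 120 days to term was 0.434 points (exact permutation p = 1) and -0.405 without donor 4 at term. None of the 7 comparisons passed after adjustment, and by design none could have, so this outcome carries no information on the shares. The smallest p was 0.0571 for the 4 comparisons of 3 against 4 animals. It was 0.0238 for those of 6 against 3, which adjustment over 7 comparisons keeps above 0.05 even at best. Fewer cells of a type and less efficient release in the digestion cannot be told apart in such shares.

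As a percentage of all mural cells the members made up 60.8 ± 10.2, 53.6 ± 12.4 and 75.3 ± 22.3 in the non-CF groups at 80 days, 120 days and term (SD, n = 4, 3 and 3). In the CFTR-/- groups the values were 63.4 ± 7.93, 43.5 ± 13.5 and 60.8 ± 5.38 (SD, n = 3, 6 and 3). The animal left out at term had 8 mural cells. All mural cells include the ACTG2-negative and DES-negative cells, which differed between animals in epithelial UMIs. Among animals with at least 10 of them, 5.56% (donor 1, non-CF at 80 days) to 57.7% (donor 3, CFTR-/- at term) held one. The lowest p was that of the CFTR-/- animals between 120 days and term, a difference of 17.3 points (exact permutation p = 0.0476, adjusted p = 0.25). With these numbers of animals no comparison of this share could have passed after adjustment either. The share of members with at least 2 UMIs of ACTG2 also varied, from 39.1% in donor 3 of the CFTR-/- animals at term to 95.8% in donor 4 of the non-CF animals at term, among animals with 10 members or more.

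**Figure D4:**
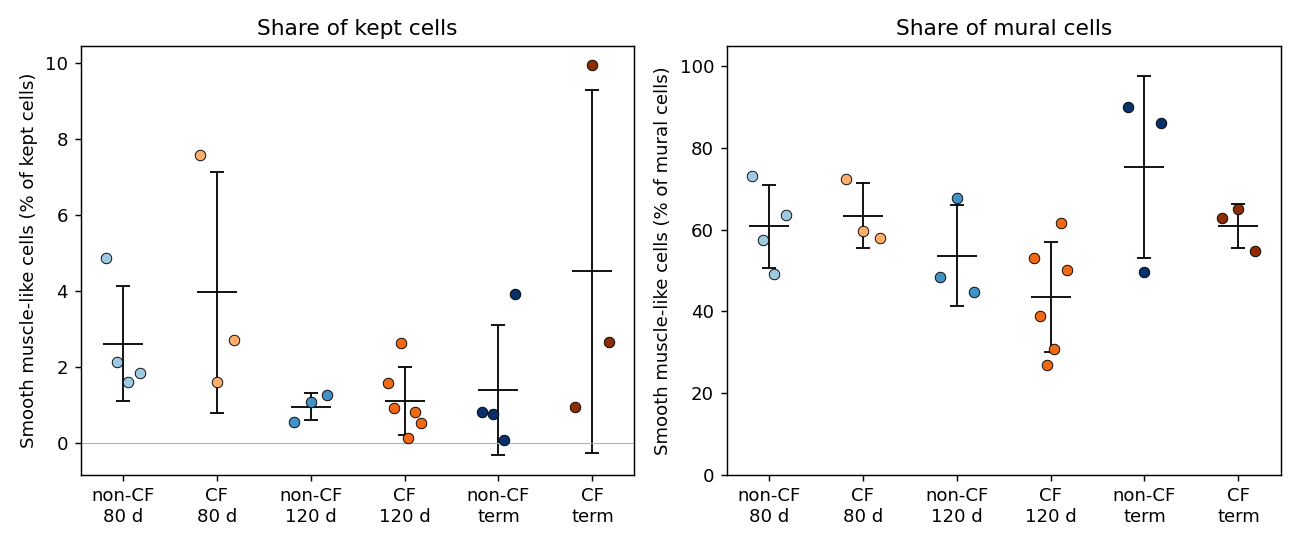
Smooth muscle-like cells as a percentage of kept cells (left) and of all mural cells (right) in the 6 groups, 1 point per animal, with the mean and SD as bar and whiskers. Points of the genotypes overlap at each age in the left panel, where 1 CFTR-/- animal at term reached 9.94%.

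Gene levels in the members were compared between genotypes and ages in 20 animals, in 1 edgeR fit of 8227 genes with a mean for each group. Only donors 2 and 4 represented the non-CF animals at term, since donors 1 and 3 had 9 and 3 members, and donor 4 of the CFTR-/- fetuses at 120 days, with 4, was left out. Between genotypes no gene passed at 80 days or at 120 days. An unadjusted p under 0.05 was found for 276 and 393 genes, and DESeq2 called 0 at both ages. At term 1 gene was higher and 1 lower in the CFTR-/- animals (0.0122% each), against 9 calls by DESeq2.

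REM1, a small GTPase that binds calcium channel subunits, was the higher one. It was at 154.1, 179.9 and 297.6 CPM in the CFTR-/- animals at term and at 26.0 and 27.5 CPM in the non-CF ones, with no overlap (log2 fold change 2.66, SE 0.435, adjusted p = 0.0173, edgeR). At 80 and 120 days REM1 lay between 51.1 and 230.6 CPM over both genotypes, so the low values were those of the 2 non-CF animals at term.

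ABI3BP, an extracellular matrix protein, was the lower one at -3.43 (adjusted p = 0.0173, edgeR). Its levels were 7.75, 1.93 and 4.88 CPM in the CFTR-/- animals at term and 11.1 and 64.3 CPM in the non-CF ones. These groups did not overlap either, though the non-CF donor 2 lay close to the CFTR-/- range. The value of 64.3 CPM was that of donor 4, the animal rich in members with more ACTG2 than ACTA2. Without this donor ABI3BP differed by -1.66 and REM1 by 2.68, in a fit that left 1 non-CF animal at term. REM1 failed to pass in 8 of 18 alternative settings and ABI3BP in 8 of 17, and no gene passed when the members were limited to the ACTG2-positive ones.

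The contractile genes did not pass between genotypes at any age. CNN1 differed by -1.49 at 80 days, by -0.15 at 120 days and by -1.57 at term, and MYH11 by -0.79, -0.03 and -0.77 (adjusted p between 0.761 and 1, edgeR). At 80 days MYH11 was at 3485, 464.8, 982.4 and 1310 CPM in the non-CF and at 730.9, 1210 and 895.7 CPM in the CFTR-/- fetuses. The high value was that of donor 1, which also held cells with more ACTG2 than ACTA2. At term the MYH11 difference turned to 0.69 without donor 4 of the non-CF animals, the other animal rich in such cells (7227 CPM), which left 1 non-CF animal. No gene passed for a difference of the CFTR-/- effect between ages, with 333 and 574 genes at an unadjusted p under 0.05 and 0 and 4 calls by DESeq2 (120 against 80 days and term against 120 days).

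More genes passed between ages than between genotypes, a difference in counts that was itself not tested. From 80 to 120 days, 25 genes (0.304%) rose and 34 (0.413%) fell in the non-CF fetuses, and 4 (0.0486%) rose and 11 (0.134%) fell in the CFTR-/- fetuses. From 120 days to term, 11 (0.134%) rose and 3 (0.0365%) fell in non-CF and 64 (0.778%) rose and 36 (0.438%) fell in CFTR-/- animals. DESeq2 gave another balance, with 110 higher and 85 lower (non-CF) and 75 and 32 (CFTR-/-) from 80 to 120 days, and 45 and 65 (non-CF) and 88 and 111 (CFTR-/-) to term, and with 5 cells per animal allowed 11 rose and 18 fell in non-CF to term. The comparisons of an age in 1 genotype share their 120-day animals. The mix of clones and naturally bred animals also differed between ages in the CFTR-/- groups. Without the naturally bred fetuses at 120 days, 8 genes passed to 120 days and 46 to term in CFTR-/- animals. With 1 animal left out the counts to 120 days ran from 0 to 165 (non-CF) and 3 to 47 (CFTR-/-). The CFTR-/- count to term ran from 23 to 95.

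MUSTN1, a small nuclear protein of muscle and skeleton, rose at each step. In the non-CF animals it was at 50.6, 40.9, 57.6 and 33.3 CPM at 80 days, 464.5, 142.3 and 330.7 CPM at 120 days and 1417 and 1706 CPM at term. In the CFTR-/- animals it was at 28.8, 35.7 and 29.1 CPM at 80 days, between 167.7 and 443.4 CPM at 120 days and at 3498, 1958 and 1237 CPM at term. The ages did not overlap in either genotype. The log2 fold changes to 120 days were 2.92 (non-CF, adjusted p = 0.00863, edgeR) and 3.70 (CFTR-/-, adjusted p = 0.00203), and those to term 2.79 (0.0257) and 2.91 (0.000725). In ACTG2-positive members alone the change to 120 days was 4.11 in the CFTR-/- fetuses (adjusted p = 0.000956, edgeR) and 2.53 in the non-CF ones, where it missed the threshold (adjusted p = 0.13). The change to term in non-CF animals was 3.11 in that fit and also missed it (adjusted p = 0.052, edgeR). That fit lacked donor 1 of the non-CF fetuses at 120 days, which had 9 ACTG2-positive cells, and with all members but without this donor the changes were 2.58 (adjusted p = 0.0522, edgeR) and 3.13 (adjusted p = 0.0952).

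PROCR, the receptor of protein C, was at 0 CPM in 3 of the non-CF fetuses at 80 days and at 5.45 CPM in the other, and at 50.7, 36.9 and 34.6 CPM at 120 days. In the CFTR-/- fetuses it went from 2.12, 7.15 and 2.33 CPM to between 22.04 and 209.7 CPM. PROCR passed in both genotypes, with 4.01 (adjusted p = 0.0279, edgeR) and 4.50 (adjusted p = 0.00552). Levels of this size rest on few UMIs in the smaller sums. The non-CF call was lost with thinned cells, with at least 20 cells per animal and in ACTG2-positive members, where 0 genes passed.

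FABP4, a fatty acid-binding protein of adipocytes and capillary endothelium, appeared at term. It was at most 21.1 CPM in any animal at 120 days, at 116.9 and 107.9 CPM in the non-CF animals at term and at 881.9, 1175 and 700.6 CPM in the CFTR-/- ones. The log2 fold change from 120 days was 3.71 in non-CF (adjusted p = 0.0213, edgeR) and 9.48 in CFTR-/- animals (adjusted p = 2.02e-08). The second rests on 3 of the 5 CFTR-/- fetuses at 120 days being at 0 CPM. In ACTG2-positive members alone the changes were 8.71 in non-CF (adjusted p = 0.0466, edgeR) and 10.1 in CFTR-/- animals. Summed endothelial markers were at most 53.6 CPM in the members, markers of adipocytes were not examined, and the part of other cells in the FABP4 level was not tested.

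MEST, an imprinted gene of growing mesoderm, fell. It was at 217.4 to 819.7 CPM in the non-CF and 269.1 to 737.3 CPM in the CFTR-/- fetuses at 80 days, at 15.6 to 69.9 CPM over both at 120 days and at 8.03 to 21.5 CPM at term. The change to 120 days was -3.63 in non-CF (adjusted p = 0.00351, edgeR) and -3.30 in CFTR-/- fetuses (adjusted p = 0.000648). MFAP2, a microfibril protein, fell in both genotypes as well, by -2.75 and -3.10.

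Of 26 fibroblast matrix genes 6 fell and 0 rose in the non-CF fetuses from 80 to 120 days, with a median of -1.63 against -0.045 over all tested genes. Over all tested genes 0.413% fell and 0.304% rose. Outside the gate LUM was seen in 13.7% and DCN, decorin, in 11.1% of cells of all animals. The part of RNA of other cells in these falls was not tested. LUM was at 1063, 2977, 1980 and 1053 CPM at 80 days and at 101.3, 115.9 and 32.4 CPM at 120 days (log2 fold change -4.37), and DCN fell by 3.79 on the log2 scale. NRK, a kinase of embryonic muscle and placenta, went from 91.2, 607.8, 494.2 and 264.3 CPM to 8.45, 0 and 4.32 CPM, a change of -6.31. DLK1 fell by 8.18 on that scale, from between 571.8 and 3235 CPM to no more than 8.45 CPM. TCF21 (-3.50), SVEP1 (-5.03), DPT (-5.13), CLMP (-4.74), LVRN (-4.69), NID1 (-3.05) and LAMB1 (-2.43) fell too. Those that rose included CRYAB, a small heat shock protein of muscle (2.82), GJA5, a connexin of arterial and conducting tissue (3.15), BCAM, a laminin receptor (2.74), SPAG4 (4.28) and LDHA (2.18). Without donor 1 of the 120-day group 0 genes passed in this comparison, against 165 without donor 4 of the 80-day group. With ACTG2-positive members alone, a fit that also lacked that 120-day donor, 0 passed, and LUM was -4.41, NRK -5.56 and CRYAB 2.83 (adjusted p between 0.13 and 0.236, edgeR).

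In the CFTR-/- fetuses the same step raised PELI2 (1.497) and lowered GAP43 (-4.28), MDFI, an inhibitor of myogenic factors (-3.91), COL9A3 (-3.65) and CCDC102B (-2.93). LUM was at 1398, 1467 and 2731 CPM at 80 days and between 62.9 and 558.9 CPM at 120 days in these animals. No member of the gene lists passed in this comparison.

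From 120 days to term the non-CF change included CTRC, an acinar protease (7.20), in animals whose summed acinar markers in the members went from between 1191 and 1725 CPM to 12560 and 31680 CPM. The part of free acinar RNA in it was not tested. ITGA5, the fibronectin receptor subunit, rose by 6.39, with 74.2 and 439.5 CPM at term, the higher in the animal rich in cells with more ACTG2 than ACTA2. REXO2 (2.18) and C24H16orf62 (2.74) rose, and AGRN, agrin (-2.87), CDH11, a mesenchymal cadherin (-2.23), and the actin-binding DBN1 (-2.19) fell.

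In the CFTR-/- animals 2 of 16 pericyte markers, HIGD1B and ENPEP, rose from 120 days to term and 0 fell. Over all tested genes 0.778% rose and 0.438% fell. HIGD1B, a pericyte marker, was at 154.1, 107.6 and 510.4 CPM at term and at no more than 21.0 CPM at 120 days (log2 fold change 5.70, adjusted p = 5.35e-05, edgeR). It was at 48.2 and 18.4 CPM in the non-CF animals at term. FKBP5, an immunophilin induced by glucocorticoids, was at 315.9, 236.0 and 94.7 CPM against 0 to 18.5 CPM, a change of 4.22 (adjusted p = 0.000235, edgeR). ENPEP, the aminopeptidase that degrades angiotensin II, rose by 3.37 and AGTR1, the angiotensin II receptor, by 2.12. Members with at least 2 UMIs of ACTG2 made up 83.8%, 89.5%, 40.0%, 90.6% and 94.7% of the members in the 5 CFTR-/- fetuses at 120 days and 51.65%, 67.3% and 39.1% at term, and the members without ACTG2 were those with more KCNJ8, ABCC9 and THY1. In ACTG2-positive members alone HIGD1B, ENPEP and AGTR1 were under the filter on low counts and not tested, and FKBP5 rose by 4.26. The part of this change in make-up was not tested. GPX3, a secreted glutathione peroxidase (4.44), C5AR2 (4.42) and ETV1 (1.98) rose.

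Among the 36 genes that fell at that step MDK, midkine, was at 6.99 to 202.1 CPM at 120 days and at 1.94, 2.32 and 2.93 CPM at term (-4.77), SOX9 fell by 3.96, THBS2 by 3.44, and FRAS1 (-3.17), PRSS35 (-3.17) and WISP1 (-3.10) fell as well. MYH11 and CNN1 did not pass in any of the 4 comparisons of ages. MYH11 changed by 0.70 and 1.39 in the non-CF and by 1.47 and 0.65 in the CFTR-/- animals (adjusted p between 0.300 and 0.605, edgeR).

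**Figure D5:**
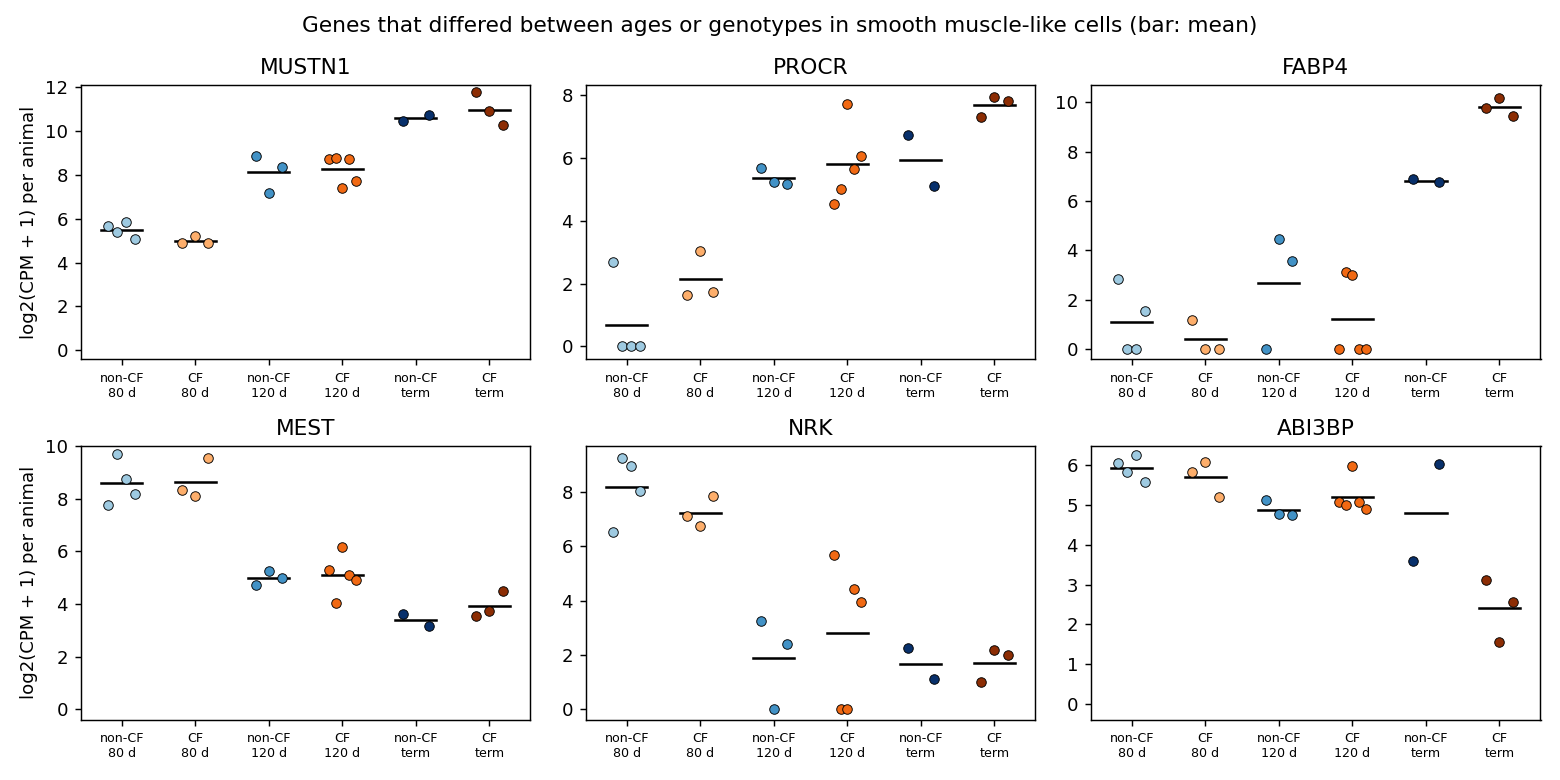
Levels of 6 genes in the members as log2(CPM + 1), 1 point per animal with the mean as a bar, in the 6 groups. MUSTN1 and PROCR rise and MEST and NRK fall from 80 to 120 days, FABP4 is high at term, and ABI3BP is lowest in the CFTR-/- animals at term.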

How the data were processed

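Single cells from collagenase-digested pancreas were profiled by 10x Genomics 3' sequencing. The deposited files hold, per library, the authors' UMI counts of 24478 genes in each called barcode, made with Cell Ranger 3.1.0 (genome build Oar_v4.0) and neither normalized nor filtered. No reference sequence of these genes was used here.

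By the thresholds that the study states, a barcode was kept if it had over 200 but under 6000 genes. Less than 25% of its UMIs had to come from mitochondrial genes (79510 of 109501 kept). The study lists higher cell numbers after processing, for example for donor 1 of the non-CF fetuses at 80 days (2565 here). The reason was not examined. The smooth muscle-like rule was then applied to the counts. The members, the 22 gene lists and the tests were chosen with earlier results of these data known. Libraries of 1 animal were added. Shares were compared over animals by exact two-sided permutation (scipy 1.17.1, Python 3.11.15) with Benjamini-Hochberg adjustment over 7 comparisons.

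For genes, counts were summed per animal and class with at least 10 cells and tested with edgeR 4.0.16 in R 4.3.3 (TMM, filterByExpr, glmQLFit, glmQLFTest, adjusted p of at most 0.05). The fits within animals took the animal as block, since deviations of the paired classes correlated in 19 of 19 animals (Pearson r from 0.119 to 0.718, across genes). The comparisons of genotypes and ages had no block, because animals with the same donor number in different groups did not deviate together (median r -0.00968, over 0.1 in 3 of 36 pairs). The scripts were tested on simulated counts. Standard deviations measure the spread between animals. In the fits within animals a p-value reflects how repeatable the difference was over animals. The other p-values weigh a difference between groups against the spread between animals. Shares of cells with a UMI carry counting error on top. Thinning drew 3000 UMIs from each cell with seed 88 and left out shallower cells.

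The text names, by rule, the 12 genes with the largest and the 12 with the smallest log2 fold change past the threshold with at least 20 CPM in the higher class for the members against the other mural cells, 5 and 5 for the kinds of member, and up to 6 and 6 for each genotype or age comparison. It also names, per list, the 4 most abundant tested genes and the 2 largest changes in each direction. Genes known only by a LOC number, mitochondrial and ribosomal protein genes were passed over, and some genes are not reported here.

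Alternatives were DESeq2 1.42.0 and its size factors, no filter on low counts, other UMI, cell and mitochondrial minimums, thinned counts, no ribosomal protein genes, no doublets, no heterozygous or no naturally bred fetuses, the donor number as block, and each animal left out. Scrublet (scanpy 1.11.5) called 0.703% of kept cells by its automatic threshold, which is low, and an alternative therefore left out the 3466 highest-scoring cells, 51 of them members. Fits on 1 age, 1 genotype or 1 kind of member, and without cells holding an epithelial UMI, were added after seeing the data.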

Additional observations from a re-analysis of the deposited data

Results flagged for a closer look

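In groups of 4 to 10 animals, 20 of 101 sets of values held an animal far from the others by Dixon's criterion, where chance flags about 1 in 20. Donor 1 of the non-CF fetuses at 80 days was flagged for the share of smooth muscle-like cells (4.87%) and, in those cells, for ACTG2 (8082 CPM), DES (1993 CPM), MYLK (5586 CPM), CNN1 (1948 CPM), ITGA5 (184.6 CPM) and PROCR (5.45 CPM, with the other 3 at 0). ACTG2, DES and MYLK were used by the rule. This is the fetus that held 40 of the 109 members with more ACTG2 than ACTA2.

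Donor 2 of the same group stood apart in DPT (574.6 CPM), the drebrin gene DBN1 (168.5 CPM) and GPX3 (15.3 CPM), and donor 4 in HIGD1B (5.87 CPM). Among the CFTR-/- fetuses at 120 days, donor 3, whose library was the shallowest of all and gave 25 members, was flagged for PROCR (209.7 CPM), PELI2 (146.8 CPM), ABI3BP (62.9 CPM) and HIGD1B (21.0 CPM, which were 3 UMIs). Donor 5 was flagged for the acinar gene CTRC (438.1 CPM) and for MDFI (4.13 CPM, 1 UMI), donor 2 for BCAM (38.9 CPM), and donor 1 for GPX3 (6.17 CPM) and C5AR2 (2.65 CPM), where most other fetuses of the group were at 0 or close to it.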

How the results depend on the processing

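Differences within animals kept their direction in most settings, whereas counts of genes that passed moved with the setting, and the cause was not tested. Members against ACTG2-negative and DES-negative cells gave 715 genes. The count was 1463 without the filter on low counts, 276 with thinned cells, 113, 147 and 277 in 80-day, 120-day and term animals alone, 133 in non-CF animals alone and 26 with members without ACTG2, and 605 to 752 when 1 animal was left out. In that last kind of member ALDOA (-0.035), CNN1 (-1.01), DMD (-0.34), ELN (-1.34), ENG (0.48), FHL1 (-0.37), FN1 (-1.16), ID4 (-0.17), INHBA (-1.03), MYL6 (-0.047), NID1 (0.27), RGS2 (-0.26), THY1 (0.66) and TPM1 (-0.37) turned, with thinning CPE (-0.027), EPAS1 (-0.14) and LDHA (-0.11), at term COL3A1 (0.21), and at 120 days ITGB1 (-0.013). None of these turned values passed the threshold. Of 16 named genes that did not pass in this comparison 9 passed in no setting and 7 passed in 1 to 3, among them KCNJ8, which passed as lower in ACTG2-positive members and with thinned cells and as higher in members without ACTG2. ACTG2-positive against ACTG2-negative members gave 934, and 1600 unfiltered, 180 thinned, 487 at 80 days, 42 at 120 days, 138 in non-CF animals and 696 to 905 with 1 animal left out. HSPH1 (0.52, thinned), LAMC1 (-0.015, non-CF animals), DNAJB1 (0.086) and IER3 (-0.75, both at 120 days) turned.

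No replicate block (the animal left out of the model) gave 255 and 405 genes in these comparisons. The donor number as replicate block, which does not pair the animals of different groups, gave 1 (CFTR-/- against non-CF at term), 151 and 9 (non-CF, 120 against 80 days and term against 120 days), 6 and 35 (CFTR-/-, same steps).

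The corresponding counts without it were 2, 59, 14, 15 and 100. In the same order DESeq2 gave 9, 195, 110, 107 and 199 (and 4 for the difference of effects at term), thinned cells 0, 0, 4, 4 and 25, and at least 20 cells per animal 0, 0, 0, 8 and 51. No filter gave 7 at term between genotypes and 56 in CFTR-/- fetuses to 120 days. Without the naturally bred fetuses the counts were 0 between genotypes, 22 in non-CF to term, and 8 and 46 in CFTR-/- animals. ACTG2-positive members gave 0, 0, 5 and 8 for the first 4, and cells without an epithelial UMI 5 and 7 for genotype and non-CF at term. At least 5 cells gave 29 in non-CF to term, and without heterozygous fetuses 26 in non-CF to 120 days. Leaving out 1 animal gave 0 to 39 (term, genotypes; 0 without CFTR-/- donor 2, 39 without non-CF donor 2), 0 to 165, 0 to 57, 3 to 47 and 23 to 95, and 0 to 1 for the difference of effects.

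Some changes of MYH11 and CNN1 between groups, none of which had passed, turned with the setting. CNN1 between genotypes at 120 days was 0.085 with 20 cells (left-out animals -0.48 to 0.088), and MYH11 0.072 thinned, 0.077 without doublets and 0.093 without epithelial UMIs (-0.16 to 0.10). MYH11 at term ran from -1.48 to 0.69 between genotypes and from -0.045 to 2.13 in non-CF animals from 120 days. From 80 to 120 days in non-CF, CNN1 was -0.26 thinned and -0.039 without heterozygous fetuses, and MYH11 -0.075 thinned.

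Shares turned too. CFTR-/- minus non-CF shares of kept cells at 80 days were -0.236 points thinned and -0.448 without epithelial UMIs (left-out animals -0.448 to 2.54), and at 120 days -0.325 without epithelial UMIs and -0.123 on a log2 scale (-0.167 to 0.333). Non-CF term minus 120 days was -0.204 on that scale (-0.405 to 0.871). Among mural cells the 80-day difference was -1.73 with 3 UMIs and -12.8 thinned (-1.94 to 6.71), and the CFTR-/- change to 120 days 4.64 thinned. Sums of 118416 UMIs limit genes near 10 CPM.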

Other observations

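Further genes of the members rich in ACTG2 were read after their values were seen and were not tested. PTCH1, the hedgehog receptor, was at 84.1 CPM in the members of donor 1 of the non-CF fetuses at 80 days and 10.3 CPM in donor 4 of the non-CF animals at term, against at most 21.7 CPM elsewhere. SMTN, smoothelin, was at 342 and 1037 CPM in these samples, against 58.7 to 402 CPM in the other 18 animals. RGS5 was seen in 6.42% of the members with more ACTG2 than ACTA2 and in 25.6% of the other ACTG2-positive members, LUM in 21.1% and 38.1%, and DCN in 44.95% and 41.9%.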
